A study of Triticum turgidum subsp. durum with 20 samples.

Results

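The comparison described here set the apex at Waddington stage W3.0 against the vegetative meristem at W1, and asked how the total change divided between the steps before and after W2. Its members were the 4 W3.0 and the 4 W1 libraries, 8 of the 20 in the series, chosen by their stage labels alone. The 4 W2 libraries served to split the change. Of 269428 gene models in the table, 190381 lie on A or B chromosomes or on scaffolds without a chromosome and were used, and the 79047 D-genome models, all at 0 counts, were dropped. All libraries came from the tetraploid durum wheat Kronos (Triticum turgidum subsp. durum), a spring cultivar that carries a VRN-A1 allele with an intron deletion and the Ppd-A1a allele of reduced photoperiod sensitivity. No line was mutant or treated. Plants grew under long days, and about 12 apices at W3.0 and about 20 at W1 and W2 were pooled for each replicate, so that a library is an average over plants and over every cell type that the scalpel took. The names of the stages differ between the sources. W2 is called double ridge in one place and early double ridge in another, and W3.0 glume primordium or double ridge, so stages are given here by their Waddington number.

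As background, the shoot apical meristem of a cereal first forms leaves and then, once induced to flower, forms paired ridges of which the upper one becomes a spikelet. The lowest organs of a spikelet, the glumes, are the first to appear. MADS-box factors of the AP1/SQUA clade and SPL factors are known to promote this change of identity, whereas SVP-type MADS-box factors act in the vegetative and early reproductive phase and TCP factors restrain growth and branching in several species. LEAFY is a regulator of floral meristem identity in Arabidopsis and of panicle growth in rice.

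The W3.0 libraries held 23667677 to 26753375 counts and the W1 libraries 25140497 to 29410741, against 22229388 to 25715962 in the W2 libraries. Within W2 and W3.0 the replicates lay close together, with a coefficient of biological variation of 0.0684 at W2 and 0.0726 at W3.0, but it was 0.117 at W1. Replicate 1 of W1 stood apart. Its chi-square per gene model against the other W1 libraries was 10.04 to 11.56, against 2.347 to 4.328 for all other replicate pairs within these 3 stages, and the coefficient at W1 was 0.0687 without it. Of 48336 gene models that passed the filter on low counts, all were fitted with the 20 libraries together. The term differentially expressed gene (DEG) is used where both edgeR (quasi-likelihood) and DESeq2 (Wald) reached 0.01 after Benjamini-Hochberg adjustment, with the same sign. Levels are given as TPM (read density over the whole gene span, scaled to the same sum in each library), and changes as edgeR log2 fold changes with their standard error (SE). TPM carry no TMM factor, so the log2 ratio of W3.0 to W1 TPM exceeded the fitted change by 0.17 to 0.19 in the named genes with at least 5 TPM at both stages. Directions are therefore read here from the fold changes of TMM-scaled counts. Whether this scaling is nearer the truth than library totals was not tested.

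Between W3.0 and W1, 21247 gene models were DEGs, or 44% of those tested. At W3.0, 9317 were higher (19.3% of those tested) and 11930 lower (24.7%). The falls were the larger changes. At least 2-fold differences numbered 2908 up and 4805 down, and at least 8-fold differences 400 up and 1737 down, of which 30 had no count in any W1 library and 128 none in any W3.0 library. The W3.0 and W1 libraries did not overlap in TMM-scaled CPM for 22817 gene models (47.2% of those tested) and for 19668 of the DEGs. Genes that were higher at W3.0 took 20.66 to 21.35% of all counts in the W3.0 libraries and 12.53 to 13.75% in the W1 libraries, whereas genes that were lower took 36.48 to 37.58% at W3.0 and 47.99 to 50.47% at W1. The split into higher and lower depended on the scaling. With library totals alone in place of TMM factors, the median log2 fold change of all gene models tested moved to 0.17, against 0.03 with TMM, and 14745 DEGs were higher and 8882 lower, so that 62.4% instead of 43.9% of the DEGs were higher. Without replicate 1 of W1, there were 19784 DEGs, 8417 higher and 11367 lower. In bulk libraries, fewer cells of a type and less RNA per cell cannot be told apart.

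Each of the steps was then called on its own. The step up to W2 held 11057 DEGs (22.9% of those tested), 4010 higher and 7047 lower at W2 than at W1. The step from W2 to W3.0 held 9285 (19.2%), 3695 higher and 5590 lower at W3.0. With library totals alone these splits were 7146 to 4745 before W2 and 4657 to 4824 after it. Both comparisons share the W2 libraries, so an error in these moves the steps in opposite directions. The order of these counts turned round without replicate 1 of W1, with 10101 DEGs before W2 and 10495 after it, and with a minimum of 2-fold, with 3154 before and 3923 after. Of the 21247 DEGs between W3.0 and W1, 5867 (27.6%) were called before W2 only, 4374 (20.6%) after W2 only and 3935 (18.5%) in both steps in the direction of the total. A further 6946 (32.7%) were called in neither step. Genes that passed in both steps carried the largest totals, with a median log2 fold change of -2.06 for the 2722 lower ones and 1.45 for the 1213 higher ones, against -0.40 and 0.49 in those called in neither step. Reversals were rare among the DEGs. In 63 of them the first step went the way of the total and the second the opposite way, and in 62 the first step went the opposite way. Another 316 gene models had steps called in opposite directions and no call between W3.0 and W1, of which 139 were higher and 177 lower at W2.

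A gene that passes in one step and not in the other is not thereby shown to change more in that step. The steps were therefore compared directly, by testing whether the level at W2 lay off the midpoint between W1 and W3.0 on the log2 scale. By both tools 2436 gene models did (5.04% of those tested). Of these, 744 were DEGs that had passed the midpoint by W2 and are called early below, 1114 were DEGs still short of it and are called late, and 578 were not DEGs between W3.0 and W1. The early DEGs comprised 398 higher and 346 lower at W3.0, and the late DEGs 291 higher and 823 lower. The remaining 19389 DEGs (91.3%) could not be told apart from equal steps at this depth and replication, which does not show that their steps were equal. Among DEGs that rose, 4.27% were early and 3.12% late, whereas among DEGs that fell, 2.9% were early and 6.9% late. With library totals alone, 530 early DEGs rose and 214 fell. The counts also moved with single libraries. Without replicate 2 of W2 there were 445 early DEGs, without its replicate 3 there were 474, and without its replicate 1 there were 660 late DEGs. A fit of the W1, W2 and W3.0 libraries alone gave 476 early and 876 late DEGs, and the fit without replicate 1 of W1 gave 839 early and 1199 late.

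**Figure D1:**
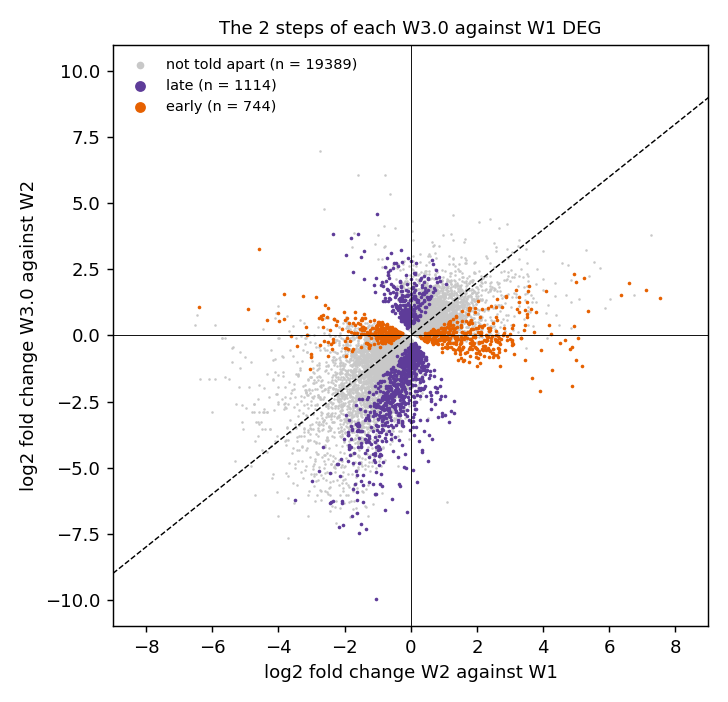
Each point is 1 of the 21247 DEGs between W3.0 and W1, with the log2 fold change of W2 against W1 on the x axis and of W3.0 against W2 on the y axis. The dashed line marks equal steps, orange points the 744 early and violet points the 1114 late DEGs, and grey the 19389 not told apart (1 point lies outside the axes). Late DEGs are most numerous below 0, where 823 of them fell after W2.

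For the DEGs of at least 2-fold, the share of the log2 change that was reached by W2 was computed for each gene model. Its median was 51.8% over the 2908 that rose (quartiles 34 and 68.6%) and 39.3% over the 4805 that fell (quartiles 25.9 and 55.2%). W2 lay outside the range of both ends in 335 of the rising and 293 of the falling DEGs. The median step of the rising genes was 0.89 before W2 and 0.85 after it, and that of the falling genes -0.96 before W2 and -1.41 after it. Among falling genes the share before W2 was lower the larger the fall. It was 43.8% for falls of 2 to 4-fold, 39.1% for 4 to 8-fold and 36.5% for falls over 8-fold, and 55.3 and 62.8% in the next 2 classes of smaller falls. In the rising genes the share was 51.5, 50.2 and 55.7% over the same classes from 2-fold upwards, and 53.8 and 53.9% in the classes of smaller rises. The lower share of the falling genes was therefore seen from 2-fold upwards and was turned round in both classes of smaller changes. Over all DEGs with no minimum fold the medians were 53.22% for rising and 51.03% for falling genes. Leaving out the gene models with 0 counts over a whole end stage gave 51.6% for rising and 39.6% for falling genes, and leaving out replicate 1 of W1 gave 51.95 and 38.69%.

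The difference in share between rising and falling genes turned round on the linear scale. When the change in mean normalized CPM was used in place of its logarithm, the same DEGs of at least 2-fold had reached a median of 34.2% of their change by W2 where they rose (quartiles 18.4 and 54%) and 64.1% where they fell (quartiles 46.2 and 78.5%). For an equal number of folds per step, a rising gene adds more transcripts in the second step and a falling gene loses more in the first, so the scale has to be named with every share. All 291 late rising and all 346 early falling DEGs were on the same side of the midpoint on both scales, as were 364 of the 398 early rising and 657 of the 823 late falling DEGs.

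**Figure D2:**
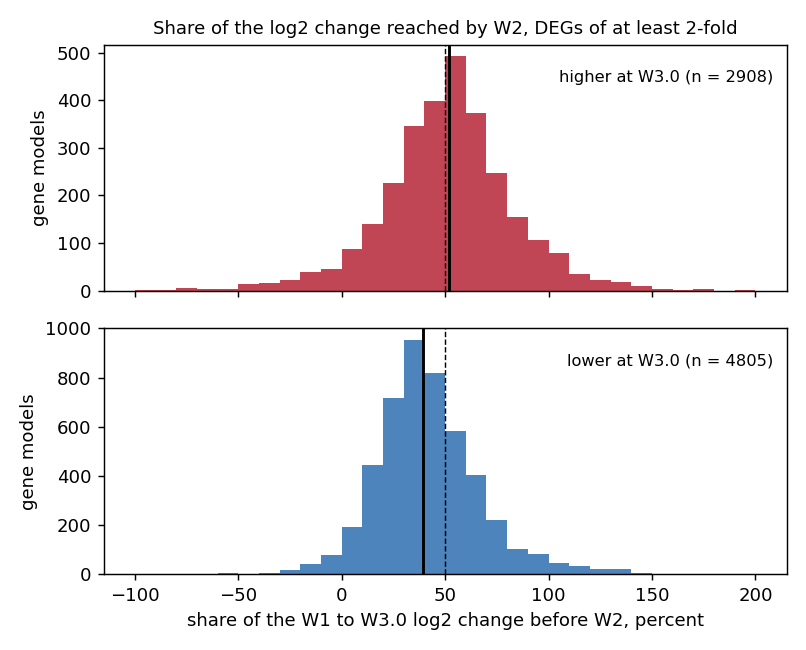
Histograms of the share of the log2 change from W1 to W3.0 that was reached by W2, in percent, for the 2908 DEGs of at least 2-fold that were higher at W3.0 (top, red) and the 4805 that were lower (bottom, blue). The y axis counts gene models, the solid line is the median and the dashed line marks 50%, and 9 gene models lie outside the x axis. The median is 51.8% for the rising and 39.3% for the falling genes.

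Placed on the line from the W1 mean (0%) to the W3.0 mean (100%) of log2 CPM, the W2 libraries were about midway. Over the rising DEGs, replicates 1 to 4 of W2 lay at 44.8, 50.5, 54.8 and 52.6%, and over the falling DEGs at 39.7, 49.0, 51.1 and 44.1%. The rising genes were further along in each of the 4 libraries, by 1.56 to 8.45 points, although the ranges of the 2 gene sets overlapped. No W2 library came near either end, since the W3.0 libraries spanned 96.56 to 103.8% and the W1 libraries -5.206 to 3.74% over both sets, the lowest being replicate 1 of W1. Libraries of the later stages lay near the W3.0 end. Those of W3.25 averaged 102.0 ± 0.885% over the rising and 94.4 ± 1.47% over the falling DEGs (SD, n = 4), and those of W3.5 averaged 99.3 ± 2.8% and 90.7 ± 2.9% (SD, n = 4).

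**Figure D3:**
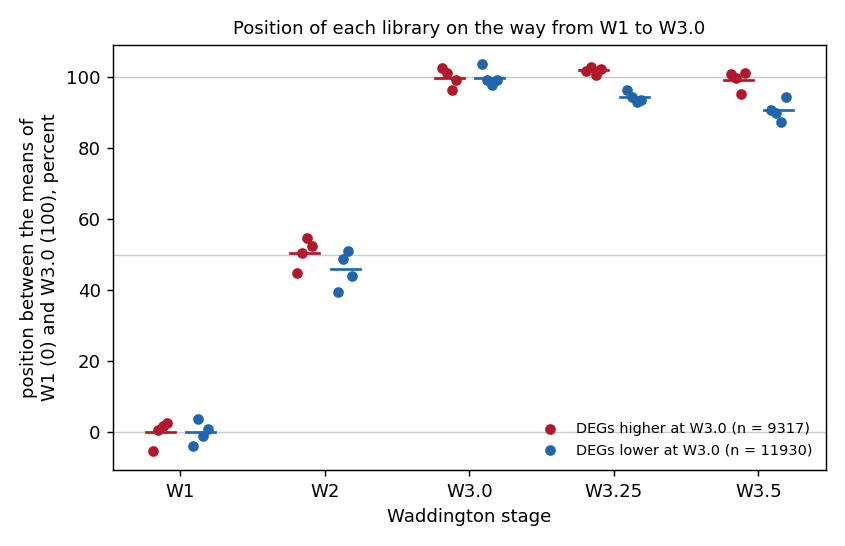
Position of each library (point) between the mean of the W1 libraries (0%) and the mean of the W3.0 libraries (100%), over the 9317 DEGs that were higher (red) and the 11930 that were lower (blue) at W3.0. Short lines are means of 4 libraries. W2 libraries sit between 39.7 and 54.8%, and at W3.5 the falling genes sit between 87.45 and 94.46%.

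The largest rises led from almost no transcript to moderate levels, and most of them were early. The top 2 belong to NF-YB genes, which encode a subunit of the trimeric NF-Y transcription factor. TraesCS6B02G316600 (chromosome 6B, 564313422 to 564314162 of IWGSC RefSeq v1.0) had 69.1, 62.6, 75.5 and 75.2 TPM in the W3.0 libraries and 0.22, 0.13, 0.14 and 0 TPM in the W1 libraries. Its W2 libraries, at 19.9, 16.3, 21.3 and 25.3 TPM, overlapped with neither end. The log2 fold change was 8.82 ± 0.29 (SE, edgeR adjusted p = 1.13e-18), with 7.12 before W2 and 1.70 after it. The 6A copy, TraesCS6A02G287300 (519237341 to 519238514), had 46.9, 40.7, 46.0 and 49.6 TPM at W3.0 and at most 0.21 TPM at W1, with 8.82 to 13.9 TPM at W2. Both genes were early by the midpoint test (edgeR adjusted p = 3.57e-08 and 3.89e-05). On the linear scale of normalized CPM, however, most of the rise came after W2, with 30.6 and 25.5% of the change before it. Their means at W3.5 were 12.5 ± 2.8 and 10.02 ± 3.03 TPM (SD, n = 4).

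TraesCS3A02G143100 on chromosome 3A averaged 0.06, 5.33 and 15.9 TPM at W1, W2 and W3.0, and TraesCS5A02G391800 on 5A averaged 0.11, 4.23 and 20.1 TPM. Both were early on the log2 scale, with 80.8 and 70.6% of the change before W2, and held 15.6 and 16.2 TPM at W3.5. TraesCS1A02G386000 on 1A had 406 counts over the W3.0 libraries and 2 over the W1 libraries, a 199.1-fold difference with a 95% interval from 54.8 to 1650 that covers counting error only, and its steps could not be told apart. A different course was seen in TraesCS7A02G238400 on 7A, the third early rise named for its distance from the midpoint. It had 12.3, 15.6, 18.98 and 19.1 TPM at W3.0 and 0.32 to 1.58 TPM at W1, but 17.2 to 24.3 TPM already at W2, so that W2 and W3.0 overlapped and no second step was called. The files and tables used here give no name for these 4 genes.

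The largest falls ended at or near 0 counts. TraesCS7A02G219700 on 7A (187430019 to 187433423) had 2 counts over the W3.0 libraries and 4289 over the W1 libraries, where it reached 23.5 to 31.8 TPM. The ratio of W1 to W3.0 was 2187 (95% interval 605 to 18061, counting error only), and 0.73 to 1.71 TPM were left at W2. No count was found at W3.0 for TraesCS1A02G335100 (1A), TraesCS7A02G161300 (7A), TraesCS2A02G424861 (2A) and TraesCS2A02G573500 (2A), whose W1 means were 7.28, 15.1, 11.3 and 7.79 TPM. Taking 3 counts per stage as the floor, they were at least 438-fold, 349-fold, 304-fold and 176-fold lower at W3.0. They reached 0 by different routes. Most of the transcript was gone by W2 in 3 of them, with means of 0.60, 0.74 and 0.20 TPM in TraesCS1A02G335100, TraesCS2A02G424861 and TraesCS2A02G573500. TraesCS7A02G161300 in contrast still had 4.50, 8.52, 4.08 and 14.1 TPM in the W2 libraries, overlapping with the 9.80 to 21.1 TPM at W1, and was late by the midpoint test (edgeR adjusted p = 7.53e-05), although 51.8% of its linear change lay before W2.

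The other genes farthest from the midpoint showed how sharp a single step could be. TraesCS5A02G381100 on 5A (578836065 to 578838464) had 0.09, 0.20, 0.36 and 0.18 TPM in the W3.0 libraries, against 6.68, 7.73, 8.16 and 8.01 TPM in the W1 libraries, and none of its fall lay before W2, where it had 7.18 to 11.1 TPM. It fell by 5.33 on the log2 scale (SE 0.26, edgeR adjusted p = 2.74e-15). TraesCS3A02G531400 on 3A, with 1 count over W3.0 and 582 over W1, scattered from 1.42 to 14.5 TPM at W2, and its late call held in 6 of the 20 fits that each left out 1 library. The early falls went the other way. TraesCS2B02G613900 on 2B (793033781 to 793035166) averaged 11.1, 0.74 and 1.14 TPM at W1, W2 and W3.0, and TraesCS4B02G342100 on 4B had 219 counts over W1, 2 over W2 and 5 over W3.0, and lost its early call without replicate 2, 3 or 4 of W2 or replicate 3 of W3.0. TraesCS5B02G145900 on 5B fell below its final level and then recovered, with 13.7 ± 5.99 TPM in the W1, 1.57 ± 0.618 in the W2 and 4.60 ± 0.87 in the W3.0 libraries (SD, n = 4), and both steps were called. Late rises started with a level or lower W2. TraesCS2B02G106400 on 2B averaged 0.80, 0.71 and 6.85 TPM at W1, W2 and W3.0, TraesCS1A02G273500 on 1A averaged 2.10, 1.32 and 8.49 TPM, and TraesCS5B02G211000 on 5B averaged 1.86, 0.75 and 7.30 TPM. For all 3, the step before W2 was not called and all 4 libraries of W3.0 lay above those of W2.

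Transcription factors (TFs) with a family name were taken from the readable part of the regulatory network that the study built on these same libraries, so that their frequent change is no independent evidence. All 58 were tested. At W3.0, 40 were higher, 14 were lower and 4 were not called, and the W3.0 and W1 libraries did not overlap in any of the 54 DEGs. Over all gene models tested, 19.3% were higher and 24.7% were lower. The W3.0 and W1 libraries did not overlap for 92.6% of all DEGs and for 47.2% of all gene models tested. The TFs' median absolute log2 fold change was 1.76, against 0.34 over all gene models tested. Among the 40 that rose, 11 were early and 7 late, and among the 14 that fell, 0 were early and 6 late. Over all DEGs, 4.27% of those that rose were early and 3.12% late. Of all DEGs that fell, 2.9% were early and 6.9% late. Among DEGs of at least 2-fold, 263 of the 2908 that rose were early and 151 late. Of the 4805 that fell at least 2-fold, 110 were early and 613 late. The median share of the log2 change before W2 was 55.3% in the TFs that rose and 32.4% in those that fell. On the linear scale 3 of the 11 early rises were still past the midpoint at W2, whereas all 7 late rises and 4 of the 6 late falls were still short of it. When each of the 20 libraries was left out in turn, 10 of the 11 early calls held every time, but 1 of the 7 late rises and 4 of the 6 late falls did.

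Of the 11 early rises, 4 were SPL genes, 2 AP1 genes, 2 NF-YB genes (given above), 2 bZIP genes and 1 a bHLH gene. SPL factors promote the change to the reproductive phase. All 5 SPL genes among the network TFs, which are not the whole family, rose, where 19.3% of all gene models tested were higher. Of these 5, 4 were early, against 4.27% of all rising DEGs and 263 of the 2908 that rose at least 2-fold, as all 5 did. TraesCS2B02G250900 on 2B (260765427 to 260768180) had 127.9, 120.9, 107.2 and 104.9 TPM in the W3.0 libraries and 3.79, 5.01, 4.46 and 4.34 TPM in the W1 libraries, with 38.02 to 55.4 TPM at W2. It rose by 4.54 ± 0.10 on the log2 scale (SE, edgeR adjusted p = 1.53e-21), of which 72.1% lay before W2, but 39.0% of the linear change did. Its 2A copy TraesCS2A02G232400 (276276336 to 276279155) rose by 4.88 ± 0.12, with 91.7, 84.8, 71.7 and 70.6 TPM at W3.0 and 2.18 to 2.60 TPM at W1. At W3.5 this pair averaged 148.6 and 102.1 TPM. The other SPL genes, TraesCS6A02G110100 (6A), TraesCS7B02G144900 (7B) and TraesCS7A02G246500 (7A), rose by 1.68, 2.84 and 2.27, and averaged 33.2, 13.9 and 37.3 TPM at W3.5, against 54.2, 31.6 and 90.1 TPM at W3.0.

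The AP1-clade MADS-box genes among the network TFs, whose products set inflorescence and spikelet meristem identity in cereals, followed the same course. TaAP1-A3 (TraesCS2A02G261200, chromosome 2A, 411943192 to 411950517) had 24.8, 24.1, 22.4 and 22.2 TPM in the W3.0 libraries and 0.20, 0.46, 0.40 and 0.43 TPM in the W1 libraries, with 5.70 to 7.97 TPM at W2. TaAP1-B1 (TraesCS5B02G396600, 5B, 573802883 to 573816070) had 23.7, 26.5, 23.01 and 24 TPM at W3.0 and 0.74 to 1.43 TPM at W1, with 9.38 to 13.4 TPM at W2. The log2 fold changes were 5.80 ± 0.13 and 4.23 ± 0.12 (SE), and 70.8 and 76.0% of them lay before W2, with a midpoint test at edgeR adjusted p = 8.01e-09 and 3.28e-09. The libraries of W1, W2 and W3.0 did not overlap for either gene. The remaining early rises were the bZIP genes TraesCS5A02G508600 and TraesCS2A02G495400, up by 2.83 and 2.20, and the bHLH gene TraesCS7A02G543300, which averaged 155.1, 243.6 and 251.1 TPM at W1, W2 and W3.0 with no step called after W2.

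In other genes with a large rise the steps could not be told apart. LFY (TraesCS2B02G464200, 2B, 658198754 to 658202018) had 29.5, 27.1, 28.4 and 31.1 TPM in the W3.0 libraries and 4.43, 3.57, 4.14 and 4.81 TPM in the W1 libraries, and 10.8 to 14.4 TPM at W2. Its log2 fold change of 2.59 ± 0.10 (SE, edgeR adjusted p = 2.68e-17) was made up of 1.42 before W2 and 1.17 after it. The ZF-HD pair TraesCS2A02G305400 and TraesCS2B02G322200, a homeodomain family with a zinc finger, rose by 2.28 and 2.24, to 114.9 and 137.5 TPM at W3.0, against 20.8 and 25.7 TPM at W1, with steps called on both sides of W2. Of 6 GATA factors, a zinc finger family, TraesCS1A02G418200 and TraesCS1B02G448200 rose by 3.28 and 2.63 and TraesCS2B02G406400 and TraesCS6A02G239200 by less than 1, while TraesCS4B02G374400 and TraesCS5A02G538600 fell by 3.72 and 2.79. None of the GATA genes was early or late. The auxin response factors (ARF) among the network TFs were all DEGs, as were 44% of all gene models tested. Of the ARF genes, 3 rose by 0.67, 0.74 and 0.83, and 1 gene, TraesCS2B02G578500, fell by 0.52. This last gene overlaps with a gene model on the opposite strand, and reads over their shared stretch were counted for neither. The same holds for the ERF gene TraesCS3B02G042400 and for TraesCS1B02G275000, both described below.

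The late rises among the network TFs, of at most 2.69 on the log2 scale, came from other families than the early ones, except for MADS-box genes. The MADS32 genes, MADS-box factors known from grasses, rose mainly after W2. TaMADS32-A1 (TraesCS3A02G284400, 3A, 513428784 to 513430811) had 133.3, 127.7, 99.2 and 100.9 TPM in the W3.0 libraries and 19.8, 14.7, 18.9 and 19.03 TPM in the W1 libraries, with 26.2 to 43.0 TPM at W2. TaMADS32-B1 (TraesCS3B02G318300, 3B, 513254002 to 513256449) had 14.6 to 25.04 TPM at W3.0 and 4.01 to 6.10 TPM at W1, and its W2 libraries, at 5.02 to 8.68 TPM, overlapped with W1. The step before W2 was called in TaMADS32-A1, at 0.70 on the log2 scale, and not in TaMADS32-B1. These homoeologs had 28.2 and 13.7% of their log2 change of 2.48 and 1.85 before W2, and averaged 167.0 and 41.98 TPM at W3.5. Among these late rises of network TFs, the NAC gene TraesCS7A02G247600 (7A, 228261234 to 228263284) had the largest distance from the midpoint. It had 46.2, 37.0, 37.3 and 32.9 TPM at W3.0 and 4.87 to 6.14 TPM at W1. Of the late-rising network TFs, it was the 1 gene whose late call held whichever library was left out. The ERF gene TraesCS1B02G326500, the AP2 gene TraesCS1A02G314200, the MYB gene TraesCS5A02G079100 and the GRF gene TraesCS4A02G255000 rose by 2.24, 2.01, 0.70 and 0.63 with 14.4 to 27.0% of it before W2. With library totals alone, the AP2 and the GRF gene were not called late.

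**Figure D4:**
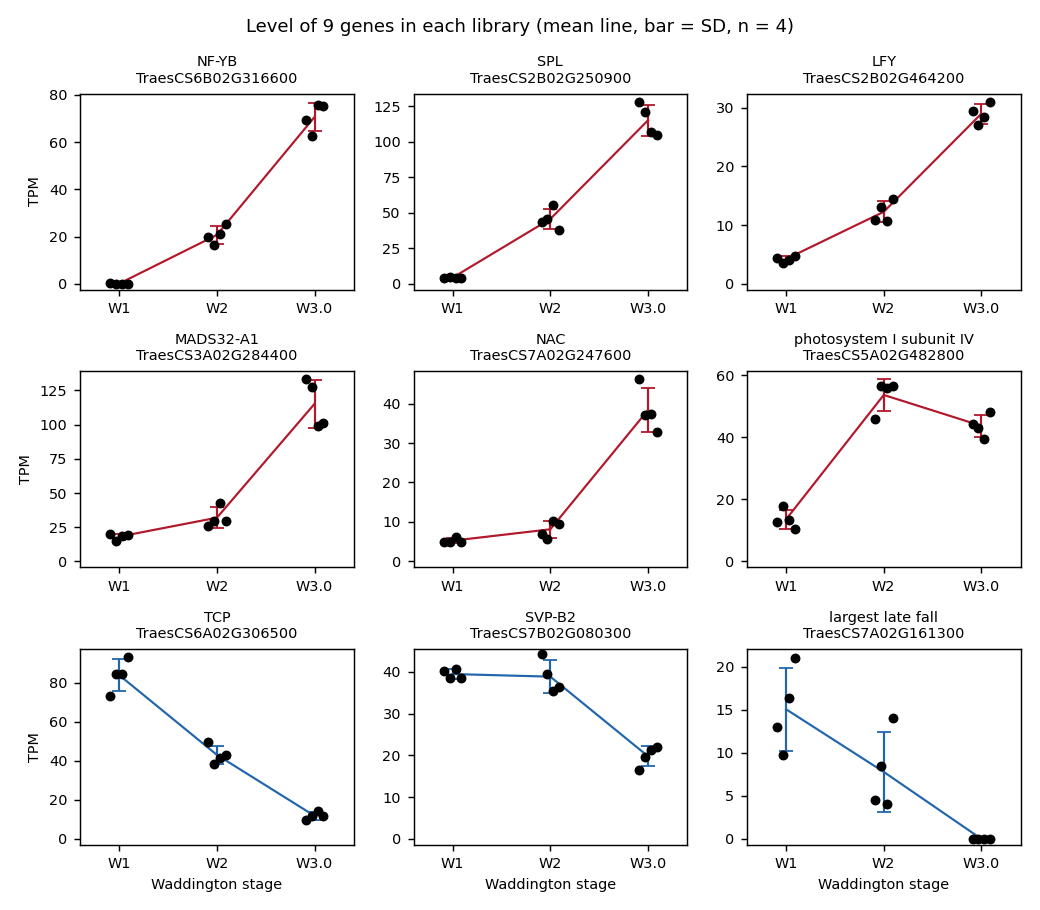
Level in TPM (y axis, linear) of 9 genes in each of the 4 libraries (points) at W1, W2 and W3.0, with the mean joined by a line and the SD as a bar. Red marks genes that were higher and blue genes that were lower at W3.0. The NF-YB, SPL and LFY genes climb in both steps, MADS32-A1 and the NAC gene climb mainly after W2, the photosystem I gene peaks at W2 with 53.6 TPM, and SVP-B2 keeps its W1 level of 39.4 TPM up to W2.

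The falling TFs included TCP genes, which encode growth regulators of meristems and lateral organs. All 5 TCP genes among the network TFs were lower at W3.0, where 24.7% of all gene models tested were lower. Of these 5, 3 were late, against 6.9% of all falling DEGs and 613 of the 4805 that fell at least 2-fold. They are not the whole family, and the paper reports other TCP genes with their highest expression during spikelet meristem formation. TraesCS6A02G306500 (6A, 540144123 to 540146045) had 9.56, 11.5, 14.3 and 11.8 TPM in the W3.0 libraries and 73.2, 84.4, 84.5 and 93.3 TPM in the W1 libraries, with 38.2 to 49.4 TPM at W2. The log2 fold change came to -2.999 ± 0.10 (SE, edgeR adjusted p = 1.15e-18), of which 35.7% lay before W2, while 59.8% of the linear change did. Its 6B copy TraesCS6B02G334900 (589127612 to 589129644) fell by 2.60, with 8.83 to 10.9 TPM at W3.0 and 48.8 to 58.7 TPM at W1, and had 33.6% of the log2 change before W2. The third late TCP gene, the low-confidence model TraesCS7A02G244300LC, fell by 2.69, and its 20.2% before W2 on the log2 scale remained short of the midpoint on the linear scale, at 37.0%. TraesCS2B02G392900 fell by 2.58 in steps of -1.30 and -1.27 that could not be told apart, and TraesCS6B02G462100 fell by 0.86.

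The paper's introduction states that wheat members of the SVP clade promote the change from vegetative to inflorescence meristem. From this clade, TaSVP-B2 (TraesCS7B02G080300, 7B, 90189439 to 90195307) changed after W2. It had 16.4, 19.6, 21.2 and 21.9 TPM in the W3.0 libraries and 40.2, 38.5, 40.6 and 38.4 TPM in the W1 libraries, and the 35.3 to 44.2 TPM at W2 overlapped with W1. The log2 fold change was -1.18 ± 0.08 (SE), with 11.5% before W2 and 16.1% on the linear scale, and the level at W3.5 was 8.31 TPM. The HD-ZIP gene TraesCS5B02G378000 and the ARF gene named above were the other late falls among the network TFs, both by less than 1. The bHLH gene TraesCS5A02G264800 fell by 3.68 with 38.1% of it before W2, and the GATA genes TraesCS4B02G374400 and TraesCS5A02G538600 had 37.8 and 40.3% of their falls before W2. None of these was called late. The bZIP genes TraesCS5A02G332000 and TraesCS5B02G094300 fell by 0.44 and 0.16 and were no longer DEGs with library totals alone. The 4 TFs with no call were TaPI-A1 (log2 fold change 0.28), the ERF gene TraesCS3B02G042400 (0.13), the bHLH gene TraesCS5A02G292900 (-0.09) and the bZIP gene TraesCS5B02G332300 (-0.07), of which TaPI-A1 and the ERF gene were higher at W3.0 with library totals alone.

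**Figure D5:**
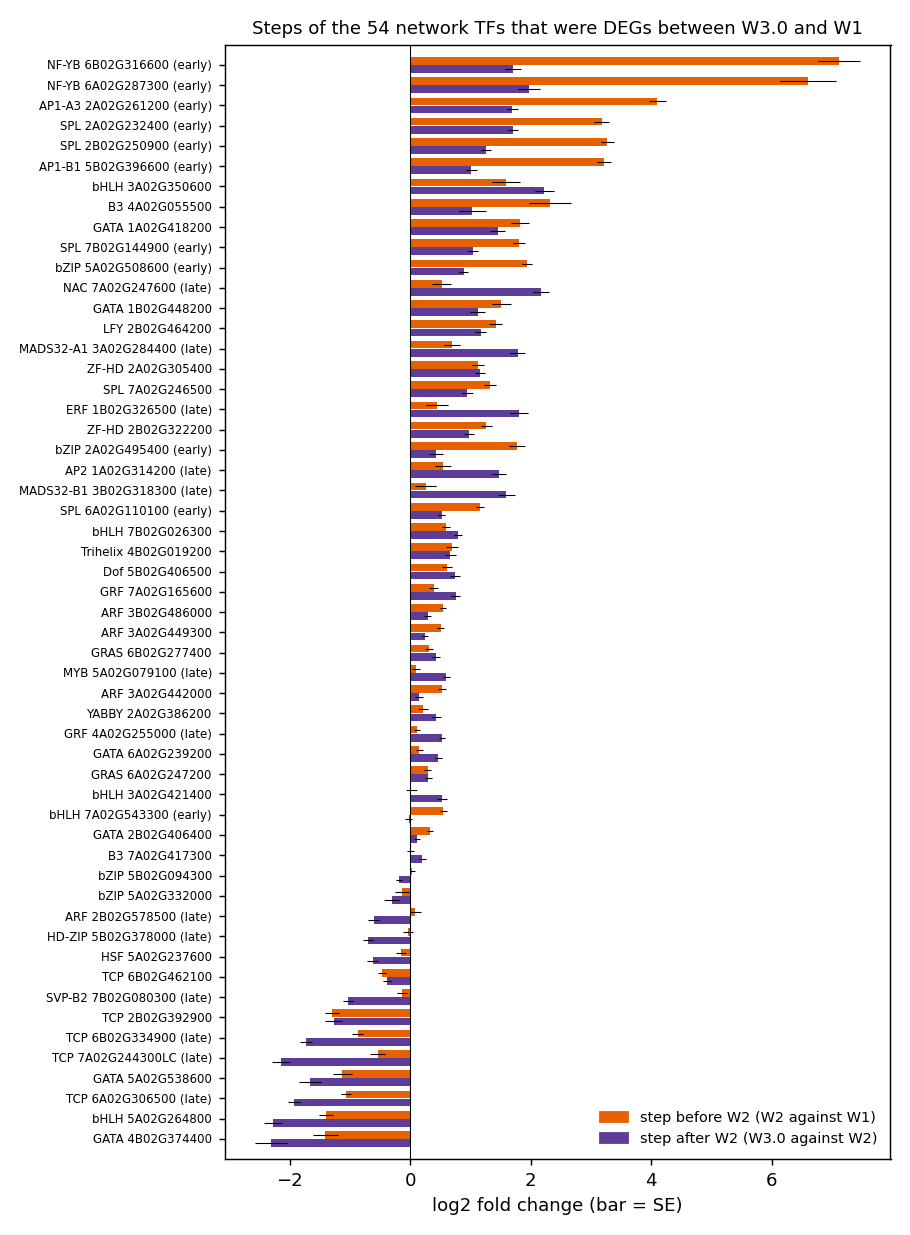
Log2 fold change of the step before W2 (orange, W2 against W1) and of the step after W2 (violet, W3.0 against W2) for the 54 network TFs that were DEGs between W3.0 and W1, ordered by their total change, with the SE as a bar. Labels give the family or name, the gene identifier without its TraesCS prefix, and whether the gene was early or late. The 11 early genes all rise, and the 6 late falls lie between -0.52 and -2.999 in total.

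Of the stem cell genes, both TtCLV3 copies and TtWUSb were looked at, and none exceeded 5.70 TPM in a library of W1, W2 or W3.0. TtCLV3 encodes a secreted peptide that limits the stem cell pool in Arabidopsis. Its 2A copy (TraesCS2A02G329300) had 5.70, 3.67, 4.31 and 5.22 TPM in the W3.0 libraries and 0.26, 0.51, 0.54 and 0.45 TPM in the W1 libraries, a rise of 3.23 ± 0.35 on the log2 scale (SE, edgeR adjusted p = 1.00e-08). Only the step after W2 was called, but the steps could not be told apart by the midpoint test (edgeR adjusted p = 0.43). Of the log2 change, 34.9% lay before W2. The 2B copy (TraesCS2B02G353000) had 0.94 to 2.24 TPM at W3.0 and 0.59 to 1.36 TPM at W1 and was not called (edgeR adjusted p = 0.246). TtWUSb (TraesCS2B02G775400LC), a homeodomain factor of the stem cell niche, had 33 counts over the W3.0 libraries, 13 over W2 and 1 over W1 and did not pass the filter. The ratio of W3.0 to W1 was 32.4 (95% interval 5.42 to 1317, counting error only), and the model overlaps with others, 1 of them on the same strand.

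The pair for photosystem I subunit IV, a chloroplast protein that green tissue makes in quantity, had its highest mean at W2. TraesCS5A02G482800 (5A, 654123665 to 654124792) averaged 13.6 ± 3.13, 53.6 ± 5.27 and 43.7 ± 3.65 TPM over the W1, W2 and W3.0 libraries (SD, n = 4), and TraesCS5B02G496000 (5B, 663174273 to 663175299) averaged 23.7 ± 6.51, 59.4 ± 4.76 and 46.0 ± 4.55 TPM. Both were higher at W3.0 than at W1, by 1.52 and 0.78 on the log2 scale, and both fell in the step after W2, by 0.37 and 0.44. The call of this second step held in 14 of the 20 fits that each left out 1 library for the 5A gene, where W3.0 and W2 libraries overlapped, and was lost without replicate 2, 3 or 4 of W2 or replicate 1, 2 or 3 of W3.0. For the 5B gene it held in 17 of 20 and was lost without replicate 2 of W2 or replicate 1 or 4 of W3.0. All 4 W2 libraries lay above all 4 W1 libraries for both genes. These were the 2 markers of green tissue, and the part of such tissue in the dissected apices was not tested. The helicase-related genes TraesCS3A02G212600 and TraesCS3B02G242700 rose by 0.33 and 0.42 with neither step called. Of the PISTILLATA-like B-class floral genes, TraesCS1B02G275000 rose by 0.43 (edgeR adjusted p = 0.00424), a call that was lost when replicate 1 or 4 of W1 or replicate 1, 2 or 4 of W3.0 was left out, and TraesCS1A02G264300 is the TaPI-A1 given above.

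Some properties that did not enter the choice of the comparison differed between the DEGs. High-confidence gene models were DEGs in 48% of 38012 cases, of which 39.1% were higher at W3.0, whereas low-confidence models were DEGs in 29% of 10324 cases, of which 73% were higher. Their shares of the log2 change before W2 were 51.2% and 54.1% for rises, and 39.8% and 33.2% for falls. The A and B genomes were alike, with 44.3 and 43.8% of the tested gene models called, 45.3 and 42.5% of these higher, and shares of 51.2 and 52.8% for rises and 39.4% in both for falls. When the gene models were split by mean expression into 4 classes of equal number, from the lowest to the highest 34.8, 38.3, 45.7 and 57% were DEGs, while the share before W2 stayed within 50.1 to 53.2% for rises and 38.5 to 40.4% for falls.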

How the data were processed

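RNA was sequenced from apices at 5 stages with 4 replicates each. The authors trimmed 100 bp single reads with Fastp 0.20.1, aligned them with STAR 2.7.5 to IWGSC RefSeq v1.0 and deposited raw counts per gene model (annotation v1.1), made with featureCounts 2.0.0 per the file headers, at a mapping quality minimum of 40, over the whole gene span, without strand and without normalization. Whole-span counting includes intronic reads, and reads over overlapping models are dropped.

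From these counts, tests were run in R 4.3.3 with edgeR 4.0.16 (TMM, quasi-likelihood) and DESeq2 1.42.0 (Wald), two-sided. filterByExpr (minimum count 10, minimum total 15) kept 48336 gene models. Stage was the factor, with 15 residual degrees of freedom. The midpoint contrast is W2 minus the mean of W1 and W3.0. SE is the log2 fold change over the root of edgeR's F. Library positions used log2 CPM with a prior count of 2. Library totals of 22229388 to 29655553 counts limit precision at low levels. Reads carry no molecular identifiers. The code was tested on simulated data. Figures used matplotlib 3.10.9 under Python 3.11.15.

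Genes named were the 5 largest rises and falls among high-confidence DEGs (libraries not overlapping, at least 10 counts in each library and a mean of 5 TPM at the higher stage), the 3 of each early and late class farthest from the midpoint with a 2-fold total, the network TFs and the genes named with an identifier in the study's text. The members and lists were chosen with earlier results of these data known. Each library was left out in turn, and the tool, libraries, filter, scaling, threshold, minimum fold, replicate block and scale were varied. No table used here pairs these identifiers with sequences, so none are shown.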

Additional observations from a re-analysis of the deposited data

Results flagged for a closer look

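By chance, about 1 in 20 independent groups of 4 libraries would pass the limit used here for a library far from the rest. The 243 groups checked reuse the same libraries, so their count cannot be set against that rate. In 13 groups, 1 library lay far from the other 3. Replicate 1 of W1 was the lowest W1 library in 5 of them, with 46.2 TPM in the GATA gene TraesCS2B02G406400 (others 57.4 to 59.2), 34.2 TPM in the ARF gene TraesCS3A02G449300 (others 43.8 to 44.5), 30.4 TPM in the ARF gene TraesCS3B02G486000 (others 39.97 to 40.8), 20.4 TPM in the bZIP gene TraesCS5A02G508600 (others 27.98 to 29.3) and 12.98 TPM in the SPL gene TraesCS7A02G246500 (others 17.6 to 17.97). All 5 genes were higher at W3.0 and kept that call without this library. Replicate 3 of W1 was high for the NAC gene TraesCS7A02G247600, at 6.14 TPM (others 4.87 to 5.04).

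At W2, replicate 1 was low for the photosystem I gene TraesCS5A02G482800, at 45.7 TPM (others 55.7 to 56.5), and replicate 4 high for TraesCS1A02G273500, at 1.98 TPM (others 1.02 to 1.18). At W3.0, replicate 1 was high for TraesCS1A02G273500, at 13.5 TPM (others 6.35 to 7.46), and for the ZF-HD gene TraesCS2A02G305400, at 126.5 TPM (others 109.8 to 112.4). Replicate 2 was low for TraesCS1A02G386000, at 5.08 TPM (others 7.65 to 8.07), and replicate 4 high for the bHLH gene TraesCS5A02G292900, at 47.02 TPM (others 44.8 to 44.96). Replicate 3 of W3.0 had the lowest percentage of counts in the rising DEGs, at 20.66% (others 21.25 to 21.35%).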

How the results depend on the processing

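The named genes were compared under library totals alone, DESeq2 size factors, the replicate block and the fits that left out each library in turn. None of these reversed a called direction in a named gene, and the other alternatives were not compared gene by gene. A minimum of 2-fold left 7713 DEGs between W3.0 and W1, 3154 before and 3923 after W2, and 373 early DEGs. With an adjusted p of at most 0.05, 4506 gene models were off the midpoint, with 1562 early and 1932 late DEGs. The W1, W2 and W3.0 libraries alone gave 476 early DEGs. The median share before W2 of falling DEGs was 51.03% with no minimum fold, and on the linear scale, chosen after seeing the data, it was 64.11% for falling and 34.17% for rising DEGs. Leaving out single libraries gave 19664 to 21478 DEGs between W3.0 and W1, 9076 to 11158 before W2, 7589 to 10495 after W2, 1541 to 2796 off the midpoint, 445 to 839 early and 660 to 1199 late, with median shares of 50.32 to 53.76% for rising and 38.54 to 42.06% for falling DEGs. The 8 libraries of W3.0 and W1 alone, added after seeing the data, gave 17586 DEGs. With the replicate number as a block, 20346 DEGs were called between W3.0 and W1, 20202 of them the same genes, of the genes named above TraesCS1B02G275000 lost its call, and same-numbered libraries did not deviate together (correlations -0.0426 to 0.057 over 12 pairs). Depth limits the genes with few counts at one end, whose folds are bounds or intervals.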
